A study of Mus musculus with 12 samples.

Results

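TRAJ31 clonotypes are the T cell receptor (TCR) α chains whose variable region was assembled with the joining segment TRAJ31. The members were chosen by the J label of each deposited row, in-frame rows only, and TRAJ31 was selected on measured values, because the most abundant clonotype of these data carries it. There were 1264 such clonotypes, a clonotype being the combination of V segment, CDR3 amino acid sequence and J segment, among 20615 in-frame clonotypes and 22578 clonotypes in all. They held 16887 of 199248 unique molecular identifiers (UMIs), each of which tags 1 Tcra mRNA molecule. Newly developed regulatory T lymphocytes (Treg) had been sorted as CD4+CD8-Thy1.1+GFP+ thymocytes, 100000 per animal, from individual B6 mice aged 3 weeks. All 12 mice carried the Rag2-Gfp reporter, which marks cells that recently expressed Rag2, the Foxp3-Thy1a reporter, the Kaa Tcrb transgene and the Tcra+/null genotype. The groups were 4 wt mice, 4 mice without Il2 (Il2°) and 4 mice without Il15 (Il15°), and the question was how the absence of either cytokine affects the TCRα repertoire. Because the TCRβ chain was fixed by a transgene and 1 Tcra allele was null, the α chain alone told the cells apart, and the repertoires are those selected with this β chain.

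The CDR3 of a TCRα chain is the loop at which the V segment meets the J segment, and it lies over the peptide when the receptor binds peptide and MHC. During recombination, nucleases trim the ends of both segments and terminal deoxynucleotidyl transferase adds bases without a template, so that the residues between the V and J parts differ among cells. IL-2 and IL-15 are cytokines that share receptor chains and promote the development of Treg in the thymus.

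TRAJ31 lies on chromosome 14 at chr14:54187895-54187951 of GRCm38 (mm10), on the plus strand, where the GENCODE M21 annotation gives a J segment gene with a single exon. The segment is printed first because every member shares it, and its capitals mark the 26 bases that can enter the CDR3. These encode the 8 residues NSNNRIFF after a partial first codon.
TRAJ31 germline segment: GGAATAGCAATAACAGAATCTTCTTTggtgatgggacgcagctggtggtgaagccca
Among 41 other J segments with the usual motif after the CDR3, 5 contribute the same number of bases and 36 contribute more, up to 35, and the mean weighted by usage was 29.2 bases.

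The clonotype that leads the members, TRAV10 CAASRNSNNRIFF, is shown next with the germline end of TRAV10 from the conserved cysteine codon, because its sequence can be read almost wholly from the 2 segments. In the sequences of clonotypes here and below, capitals mark the bases that match neither germline segment when the V segment is matched first, and the forms are ordered by their UMIs.
TRAV10 germline: tgtgcagcaagca
Form 1: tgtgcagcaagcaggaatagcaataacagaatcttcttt
Form 2: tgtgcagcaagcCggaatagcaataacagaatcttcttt
Form 3: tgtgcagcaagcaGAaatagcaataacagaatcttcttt
Form 4: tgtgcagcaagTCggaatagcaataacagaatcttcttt
Form 5: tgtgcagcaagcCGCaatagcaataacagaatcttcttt
Form 1 joins all 13 bases of TRAV10 to all 26 bases of TRAJ31 with 0 added bases, and it held 1870 of the 4014 UMIs of the clonotype. Form 2 keeps 12 bases of TRAV10 and has 1 added base, and it held 1666 UMIs. Both occurred in all 12 mice. Together they made up 88.2% ± 4.66 (SD, n = 12) of the leading clonotype, between 80.1% and 98.1% in single mice. In all, 12 nucleotide forms encoded this clonotype, and a single mouse held between 3 and 9 of them.

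TRAJ31 was the J segment with the highest mean share, a property close to the reason for its choice and given as a description. It held 7.06, 7.87, 10.1 and 9.0% of the UMIs of the 4 wt mice. The share was 10.7, 8.09, 8.0 and 8.80% in the Il2° mice. It was 8.04, 7.90, 9.32 and 8.77% in the Il15° mice. The 3 groups overlapped, with the highest value in an Il2° mouse and the lowest in a wt mouse. The next J segments by mean share were TRAJ12 at 8.27%, TRAJ9 at 6.84% and TRAJ23 at 6.12%, and TRAJ31 ranked between 1 and 3 in single mice.

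**Figure D1:**
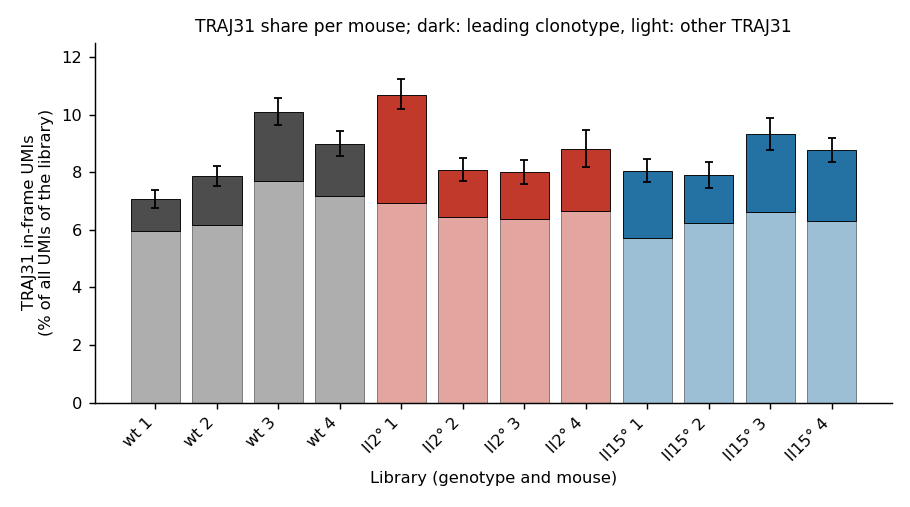
Share of TRAJ31 in-frame UMIs per library (y axis, % of all UMIs), 1 bar per mouse with its 95% Wilson interval for counting error. The dark part is the leading clonotype, between 1.09 and 3.76% of the library, and the light part is the other TRAJ31 clonotypes, between 5.71 and 7.70%. The bars of the 3 genotypes overlap.

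The genotypes did not differ detectably in this share. The means were 8.51% ± 1.33 in wt, 8.90% ± 1.25 in Il2° and 8.51% ± 0.662 in Il15° mice (SD, n = 4 each). Il2° mice exceeded wt mice by 0.389 percentage points, with an adjusted p of 0.886 in the exact 2-sided Mann-Whitney test (Benjamini-Hochberg over 3 comparisons). Il15° and wt differed by 0.000575 percentage points and Il15° and Il2° by -0.389, each with the same adjusted p of 0.886 in this exact test. The smallest unadjusted p that 4 against 4 mice allows is 0.0286. A share of UMIs counts molecules, so that more cells of a clonotype and more Tcra mRNA per cell cannot be told apart.

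Depth ranged from 7625 UMIs (Il2° mouse 4) to 25980 UMIs (wt mouse 1), and from 671 to 1882 UMIs for TRAJ31. A clonotype with 0 UMIs could have a share of up to 0.0115% in the deepest library and up to 0.0393% in the shallowest one, counting error only. The label of the members was checked against the germline residues: 99.5% ± 0.334 of TRAJ31 UMIs (SD, n = 12) ended with the last 4 residues of the segment, RIFF, and 65.3% ± 5.97 with all 8. The semi-invariant α chains of 2 other cell types that a sort could hold were rare, TRAV11 with TRAJ18 of invariant NKT cells at 0.00538 to 0.109% and TRAV1 with TRAJ33 of MAIT cells at 0 to 0.236% of UMIs. The latter had 0 to 0.0279% in Il15° mice and 0.0313 to 0.117% in wt mice, and its part in the results below was not tested.

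The J segments beside TRAJ31 were used less than TRAJ31 itself. Of the 5 nearest J segments on each side by number, among those that occur in the tables, TRAJ27 had a mean share of 5.07% ± 0.520 and TRAJ37 of 5.03% ± 0.787 (SD, n = 12). TRAJ26 followed at 3.41%, TRAJ34 at 2.81%, TRAJ30 at 1.93%, TRAJ32 at 1.78% and TRAJ33 at 1.70%. TRAJ24, TRAJ28 and TRAJ35 had means below 1%. For the 7 neighbours at 1% or more, the exact Mann-Whitney test with adjustment over 24 J segments called none in any comparison, and the unadjusted exact p was 0.0286 for TRAJ37 and TRAJ32 in Il2° against wt and for TRAJ32 in Il15° against wt, in each case with lower values in the mutant. Over all 24 J segments, 3 had an unadjusted exact p under 0.05 in Il2° against wt and 1 in Il15° against wt. The remaining segment in Il2° against wt was TRAJ21, which is no neighbour and was higher in Il2° mice.

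**Figure D2:**
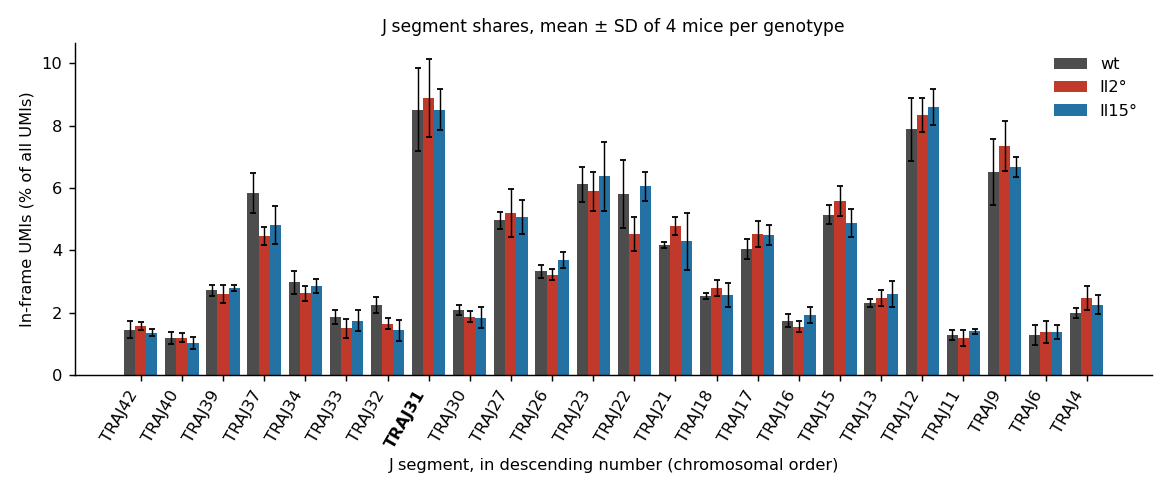
Mean share of each J segment with at least 1% of UMIs (y axis, % of all UMIs), with the segments in chromosomal order on the x axis, bars for the 3 genotypes and SD of 4 mice as error bars. TRAJ31 stands at 8.51 to 8.90% between TRAJ32 and TRAJ30, both at most 2.26% in each genotype.

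TRAV10 was the commonest partner of TRAJ31. TRAJ31 was joined to 85 of the 105 TRAV names in the tables, of which 7 had at least 3% of TRAJ31 UMIs and 72 had less than 1%. As means over the 12 mice, TRAV10 held 29.7% of TRAJ31 UMIs, TRAV4D-3 20.7%, TRAV7-2 10.1%, TRAV7-3 6.03%, TRAV4N-3 3.60%, TRAV4D-4 3.55% and TRAV12-3 3.10%. The share of TRAV10 rested on its leading clonotype, which made up 81.1% ± 6.83 (SD, n = 12) of the UMIs that join TRAV10 to TRAJ31. With that clonotype left out, TRAV10 held 7.48% ± 3.07 of the remaining TRAJ31 UMIs, and among UMIs of the other J segments it held 0.761% ± 0.267. TRAV4D-3 held 15.8% and TRAV7-2 5.89% of the UMIs of other J segments. Among J segments with at least 1% of UMIs, the partner profile of TRAJ31 overlapped most with those of TRAJ30 (54.8%), TRAJ33 (52.0%) and TRAJ26 (50.8%) and least with those of TRAJ18 (31.6%), TRAJ4 (32.6%) and TRAJ12 (32.6%), as the sum over TRAV segments of the smaller of the 2 shares.

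None of the TRAV partners of TRAJ31 passed the test between wt and Il2° mice. Of the 7 partners named, 4 had shares of TRAJ31 UMIs that did not overlap between these groups, with TRAV4D-3, TRAV4D-4 and TRAV4N-3 lower and TRAV7-2 higher in Il2° mice. TRAV4D-3 held 28.8, 24.9, 23.2 and 23.9% of TRAJ31 UMIs in wt mice. It held 14.5, 17.6, 21.0 and 15.4% in Il2° mice, all below the wt mice, and 20.4, 16.8, 17.0 and 25.3% in Il15° mice, which overlapped both groups. TRAV4D-4 held 4.69, 3.98, 4.89 and 4.36% in wt mice, against 0.775, 1.66, 2.68 and 3.28% in Il2° mice, again without overlap. TRAV4N-3 held 3.98 to 6.56% in wt and 1.79 to 3.45% in Il2° mice. TRAV7-2 had 5.95, 8.18, 7.80 and 9.69% in wt mice and 10.7, 11.2, 10.8 and 13.9% in Il2° mice, and 8.14 to 14.1% in Il15° mice. These percentages sum to 100 within TRAJ31, so that a higher value of 1 partner lowers the others. As shares of all UMIs, TRAV4N-3 and TRAV7-2 with TRAJ31 overlapped between wt and Il2° mice. Partners of the other J segments were not counted in this way, so that the 4 without overlap are a description.

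**Figure D3:**
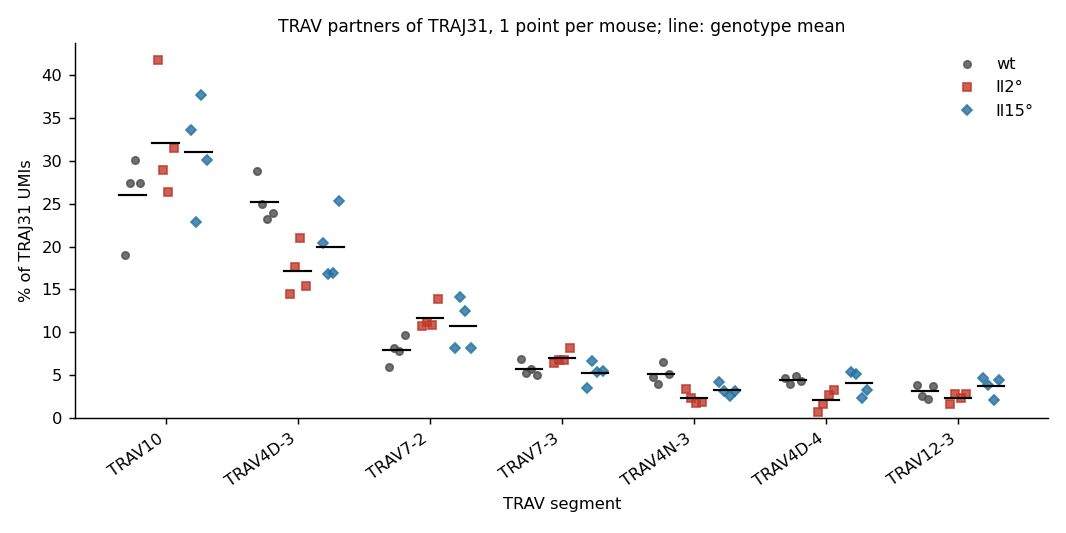
Share of the 7 most frequent TRAV partners among TRAJ31 UMIs (y axis, %), 1 point per mouse, coloured by genotype, with the genotype mean as a line. TRAV4D-3 spans 23.2 to 28.8% in wt and 14.5 to 21.0% in Il2° mice without overlap, and TRAV10 reaches 41.7% in 1 Il2° mouse.

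For whole libraries, the UMI counts of V-J pairs were fitted with edgeR (quasi-likelihood test), with adjustment over all pairs tested. In Il2° against wt mice, 2 of 515 pairs passed an adjusted p of 0.05 (0.388%) and 0 of the 31 TRAJ31 pairs tested did. At an unadjusted p under 0.05, 56 of all pairs (10.9%) and 7 TRAJ31 pairs were listed. Values without overlap were found for 18 pairs higher in Il2° mice (3.50%), 1 of them with TRAJ31 (TRAV7D-6), and for 29 pairs lower (5.63%), 3 of them with TRAJ31 (TRAV4D-3, TRAV4D-4 and TRAV14-3). The log2 fold change was 1.82 ± 0.66 (SE) for TRAV7D-6 and -1.38 ± 0.59 for TRAV14-3, with edgeR adjusted p of 0.296 and 0.385, both named after their values were seen. The log2 fold changes were -0.41 ± 0.18 (SE) for TRAV4D-3, -1.03 ± 0.37 for TRAV4D-4, -0.96 ± 0.35 for TRAV4N-3 and 0.67 ± 0.25 for TRAV7-2 with TRAJ31, with edgeR adjusted p of 0.389, 0.296, 0.296 and 0.296. TRAV10 with TRAJ31 had a log2 fold change of 0.43 ± 0.24, TRAV7-3 of 0.45 ± 0.24 and TRAV12-3 of -0.25 ± 0.33, with edgeR adjusted p of 0.513, 0.498 and 0.820.

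Taking the TRAV4 segments of TRAJ31 together, a grouping chosen after the values were seen and not tested, the share was 33.6 to 38.8% of TRAJ31 UMIs in wt, 18.9 to 27.2% in Il2° and 22.0 to 32.0% in Il15° mice. Among UMIs of the other J segments, the same TRAV4 segments held 33.9 to 39.0% in wt, 25.6 to 29.7% in Il2° and 30.8 to 35.2% in Il15° mice. The lower TRAV4 values of Il2° mice thus occurred with TRAJ31 and with the other J segments, and both sets of Il2° values lay below those of wt mice. TRAV7 segments held 15.5 to 19.0% of TRAJ31 UMIs in wt and 22.0 to 25.9% in Il2° mice, and 17.2 to 20.6% against 21.4 to 23.6% with the other J segments.

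In Il15° against wt mice, 0 of 528 V-J pairs passed the edgeR threshold (0%), and 30 were listed at an unadjusted p under 0.05 (5.68%), with 0 and 1 of the 29 TRAJ31 pairs. In Il15° against Il2° mice, 0 of 471 pairs passed (0%) and 53 were listed at an unadjusted p under 0.05 (11.3%), with 0 and 1 of the 28 TRAJ31 pairs. The pair listed in the former was TRAV4N-3, with a log2 fold change of -0.66 ± 0.31 (SE) and an edgeR adjusted p of 0.838. The pair listed in the latter was TRAV4D-4, at 0.88 ± 0.42 with an edgeR adjusted p of 0.40. In the order of the 3 comparisons, DESeq2 called 5 of the 176, 4 of the 528 and 4 of the 188 pairs to which it gave an adjusted p, 0 of them with TRAJ31.

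The 10 TRAJ31 clonotypes with the highest mean share held 48.7% ± 5.62 of TRAJ31 UMIs (SD, n = 12), between 38.2 and 60.9% in single mice. The leading clonotype, TRAV10 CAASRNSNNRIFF, had 1.09, 1.71, 2.41 and 1.83% of all UMIs in wt mice. It had 3.76, 1.64, 1.63 and 2.15% in Il2° mice and 2.33, 1.67, 2.72 and 2.45% in Il15° mice. The groups overlapped, and the log2 fold changes were 0.43 ± 0.30 (SE) for Il2° against wt, 0.34 ± 0.28 for Il15° against wt and -0.07 ± 0.34 for Il15° against Il2°, with edgeR adjusted p of 0.762, 0.982 and 0.978.

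The second clonotype, TRAV7-2 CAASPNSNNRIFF, had the same length and the same J residues. It had 0.304, 0.523, 0.632 and 0.733% of all UMIs in wt mice, 1.08, 0.718, 0.806 and 1.14% in Il2° mice and 0.444, 0.901, 0.837 and 0.533% in Il15° mice. All but 1 of the wt mice lay below each Il2° mouse. The log2 fold change for Il2° against wt was 0.84 ± 0.30 (SE) with an edgeR adjusted p of 0.391. Its 2 commonest forms, shown because both reach the same proline from different added bases, held 50.1% and 21.9% of its 1313 UMIs.
TRAV7-2 germline: tgtgcagcaagc
TRAV7-2 form 1: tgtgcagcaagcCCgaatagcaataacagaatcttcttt
TRAV7-2 form 2: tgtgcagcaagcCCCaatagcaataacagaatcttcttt
The third clonotype, TRAV7-3 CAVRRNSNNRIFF, had a mean share of 0.30%, from 0.140 to 0.511%.

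Clonotypes 4, 5 and 7 joined TRAV4D-3. TRAV4D-3 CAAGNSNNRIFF ranged from 0.0291 to 0.475% (mean 0.244%) and TRAV4D-3 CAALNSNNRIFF from 0.0968 to 0.384% (mean 0.244%), both present in all 12 mice. TRAV4D-3 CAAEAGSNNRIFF had 0.177, 0.209, 0.325 and 0.167% in wt mice. In Il2° mice it had 0.00753, 0, 0.0910 and 0.0525%, all below the wt mice, and in Il15° mice 0.178, 0.174, 0.0744 and 0.280%. The commonest forms of the first and the last are shown, since they differ in how much of both segments is kept.
TRAV4D-3 germline: tgtgctgctgagg
TRAV4D-3 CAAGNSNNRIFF: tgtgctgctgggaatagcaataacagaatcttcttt
TRAV4D-3 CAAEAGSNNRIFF: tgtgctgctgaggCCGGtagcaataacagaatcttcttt
The former had 0 added bases, 10 bases of TRAV4D-3 and the whole 26 bases of TRAJ31 in 65.8% of its UMIs. The latter kept 13 bases of TRAV4D-3 and 22 of TRAJ31 around 4 added bases in 19.9% of its UMIs, and 14 nucleotide forms encoded it in all.

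The other 4 of the 10 were TRAV12-3 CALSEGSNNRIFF (mean 0.159%), TRAV7-3 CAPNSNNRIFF (0.127%), TRAV10 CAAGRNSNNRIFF (0.108%) and TRAV4D-4 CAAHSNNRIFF (0.083%). The first 2 of these occurred in all 12 mice and the last 2 in 11. TRAV4D-4 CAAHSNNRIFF had 0.108 to 0.208% in wt, 0.0151 to 0.0787% in Il2° and 0 to 0.0861% in Il15° mice, both mutants below wt without overlap.

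**Figure D4:**
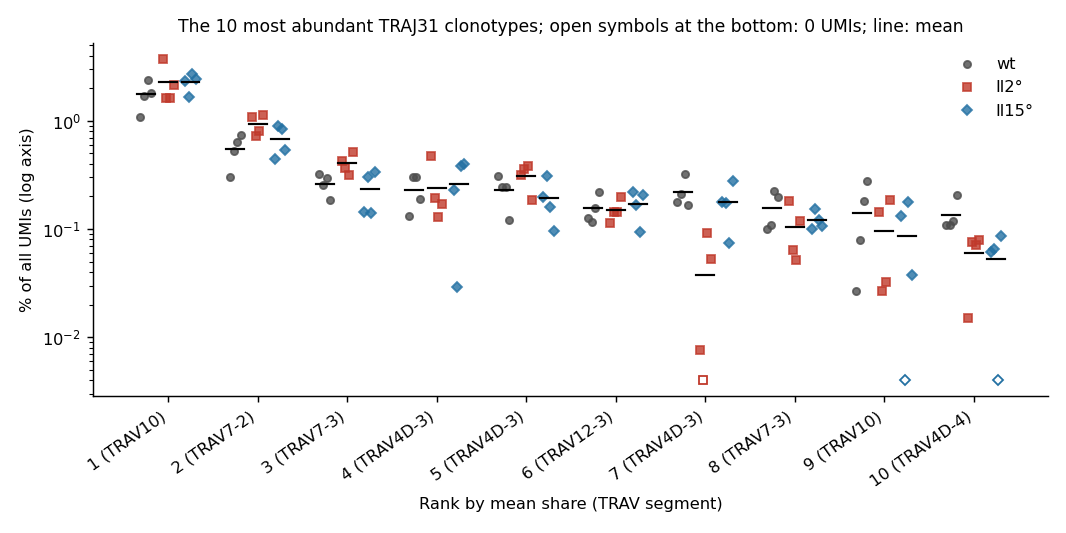
Share of the 10 most abundant TRAJ31 clonotypes in each mouse (y axis, % of all UMIs, log axis), in order of mean share, with the TRAV segment of each in brackets, genotype means as lines and open symbols at the bottom for 0 UMIs. Clonotype 1 lies between 1.09 and 3.76%, and clonotype 7 lies lower in the 4 Il2° mice than in the 4 wt mice.

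In the comparison of single clonotypes by edgeR, 1042 TRAJ31 clonotypes were present in wt or Il2° mice and 32 of them passed the minimum of 5 UMIs in 4 of 8 libraries, with 59.4% of the TRAJ31 UMIs. None of the 464 clonotypes tested passed an adjusted p of 0.05 in Il2° against wt (0 called, 0%), and 43 had an unadjusted p under 0.05 (9.27%), among them 6 of the 32 TRAJ31 clonotypes. DESeq2 gave an adjusted p to 131 clonotypes in this comparison and called 8, 1 of them with TRAJ31, TRAV4D-3 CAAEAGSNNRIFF, with a log2 fold change of -2.47 and an adjusted p of 0.0345. The wt mice alone met the minimum for it, with 29 to 52 UMIs against 0 to 14 in Il2° mice, so that this call is a description. Without overlap between the groups, 28 clonotypes were lower in Il2° mice (6.03%), 7 of them with TRAJ31, and 10 were higher (2.16%), 0 of them with TRAJ31. The median log2 fold change was 0.06 over the 32 TRAJ31 clonotypes and 0.10 over all 464. The 7 TRAJ31 clonotypes that lay lower without overlap used TRAV4 segments, TRAV7-2 or TRAV14-3. TRAV4 segments were also frequent among the tested TRAJ31 clonotypes that overlapped, and a difference in TRAV4 use between the 2 sets was not tested. Because a clonotype could pass the minimum through the wt mice alone, and Il2° libraries were shallower on average (13733 against 20801 UMIs), the 7 are given as a description.

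The 3 TRAJ31 clonotypes with the lowest p for Il2° against wt were TRAV7-2 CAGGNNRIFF, TRAV4D-3 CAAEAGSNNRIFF and TRAV7-2 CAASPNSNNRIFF. TRAV7-2 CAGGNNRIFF had 0.0616, 0.0836, 0.0876 and 0.0404% in wt mice and 0.0151% in 1 Il2° mouse, with 0 UMIs in the other 3. It had 2 UMIs in Il2° and 57 in wt mice, and edgeR gave an adjusted p of 0.20. The clonotype passed the minimum through the wt mice alone, so that these values are a description. In Il15° mice it had 0.0111, 0.0727, 0.158 and 0.0323%, which overlapped wt. TRAV4D-3 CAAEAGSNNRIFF had a log2 fold change of -2.46 ± 0.78 (SE) with an edgeR adjusted p of 0.265.

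In Il15° against wt mice, 34 of 916 TRAJ31 clonotypes were tested. Of all 478 clonotypes, 0 passed the edgeR threshold (0%) and 20 had an unadjusted p under 0.05 (4.18%), 1 of them with TRAJ31, and DESeq2 called 5 of 478, 0 of them with TRAJ31. Without overlap between the groups, 17 clonotypes were lower in Il15° mice (3.56%), 2 of the 34 with TRAJ31, and 9 were higher (1.88%), 0 of them with TRAJ31. Here too a clonotype could pass the minimum through 1 genotype alone, so that these counts are a description. The median log2 fold change was -0.31 over the TRAJ31 clonotypes and -0.17 over all. The 3 with the lowest p were TRAV4D-3 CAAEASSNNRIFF at -2.53 ± 1.15 (SE), TRAV4D-4 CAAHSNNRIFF at -1.37 ± 0.72 and TRAV14-3 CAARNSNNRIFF at -1.33 ± 0.78, each with an edgeR adjusted p of 0.982. TRAV14-3 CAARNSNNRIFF had 0.0693, 0.0627, 0.0751 and 0.0462% in wt mice and 0.0278, 0.0436, 0.0186 and 0.0161% in Il15° mice, without overlap, and it had 0.0151, 0, 0.0260 and 0% in Il2° mice.

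In Il15° against Il2° mice, 29 of 912 TRAJ31 clonotypes were tested. Of all 362 clonotypes, 1 passed the edgeR threshold (0.276%), 0 of them with TRAJ31, and 34 had an unadjusted p under 0.05 (9.39%), 5 of them with TRAJ31. DESeq2 called 3 of the 299 clonotypes to which it gave an adjusted p, 0 of them with TRAJ31. Without overlap between the groups, 17 clonotypes were higher in Il15° mice (4.7%), 2 of the 29 with TRAJ31, and 14 were lower (3.87%), 1 of them with TRAJ31. TRAV10 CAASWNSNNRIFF, which has tryptophan before the J residues, had 0.158, 0.145, 0.143 and 0.0918% in Il2° mice. In Il15° mice it had 0.0444% in 1 mouse and 0 UMIs in the other 3, and in wt mice 0.0577, 0.125, 0 and 0%. Its log2 fold change was -3.48 ± 1.09 (SE) with an edgeR adjusted p of 0.342. Without Il15° mouse 1, the only Il15° mouse with UMIs, it was called with an adjusted p of 0.0341 by edgeR, against 3 mice at 0. The Il2° mice alone met the minimum for this clonotype, so that this call is a description. TRAV4D-4 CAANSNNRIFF at 2.37 ± 0.90 and TRAV4D-3 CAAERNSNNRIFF at 2.83 ± 1.15 were higher in each Il15° mouse than in each Il2° mouse, with edgeR adjusted p of 0.469 and 0.489. Both passed the minimum of 5 UMIs in 4 of 8 libraries through the Il15° mice alone. Because this minimum favours clonotypes that are high in 1 genotype, the values without overlap are given as a description. The commonest form of TRAV10 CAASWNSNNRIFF, printed to set beside form 1 and form 2 above, held 98.5% of its 130 UMIs.
TRAV10 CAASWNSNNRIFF: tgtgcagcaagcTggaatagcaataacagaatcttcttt

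The frame of the segment limited the residue before the J part in those UMIs that kept the whole segment. Where all 26 bases of TRAJ31 were kept, as in 40.7% ± 6.36 of TRAJ31 UMIs (SD, n = 12), the first 2 bases complete the codon before the first asparagine, so that this residue is arginine (AGG or CGG), glycine (GGG) or tryptophan (TGG). Among these UMIs the codon AGG had 38.7% ± 5.61, CGG 44.2% ± 2.97, GGG 11.1% ± 2.79 and TGG 6.01% ± 3.19. The other 59.3% ± 6.36 of TRAJ31 UMIs did not keep all of these bases. The residue counted over all UMIs is the last one before the stretch that matches the germline J residues, so that its position varies. Over all TRAJ31 UMIs, arginine preceded the germline J residues in 38.1% ± 5.61, glycine in 18.2% ± 3.61 and proline in 12.6% ± 2.98. Arginine had 18.5% ± 3.33 without the leading clonotype and 18.2% ± 2.43 when each clonotype was counted once. Serine as this residue had 2.50 to 3.96% in wt mice, 1.34 to 1.90% in Il2° and 0.699 to 1.72% in Il15° mice, below wt in every mutant mouse. Glycine had 17.6 to 23.5% in wt and 13.4 to 16.6% in Il2° mice, and 16.2 to 23.6% in Il15° mice. Glutamine had 0.982 to 1.28% in wt and 0.133 to 0.596% in Il2° mice. Threonine was higher in Il2° mice, at 0.569 to 1.04% against 0.436 to 0.557% in wt mice, and asparagine had 0.184 to 0.429% in Il15° and 0.491 to 1.80% in wt mice. Of the 20 residues looked at, these are all that did not overlap with wt, 3 lower and 1 higher in Il2° mice and 2 lower and 0 higher in Il15° mice, and no test was run.

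CDR3s with TRAJ31 were shorter than those with other J segments in each of the 12 mice. The UMI-weighted mean length was 12.49 ± 0.0708 amino acids with TRAJ31 and 13.1 ± 0.0228 with the other J segments (SD, n = 12), a difference of -0.655 ± 0.0803, with a p of 0.000488 in the exact 2-sided sign-flip permutation test over mice, the smallest p that 12 mice allow. Without the leading clonotype, the difference was -0.816 ± 0.0805 with the same exact permutation p. A length of 13 amino acids held 64.1% ± 4.50 of TRAJ31 UMIs and 30.8% ± 1.77 of those of other J segments. A length of 14 held 3.12% ± 0.928 against 33.5% ± 1.08. TRAJ31 contributes up to 26 germline bases, against a usage-weighted mean of 29.2 for the other J segments. The direction of the difference is thus largely set by the J label that defines the members. The test cannot separate anything else from this, and the difference is a description. Between genotypes, the share at 13 amino acids was 56.9 to 61.9% in wt, 59.4 to 70.5% in Il2° and 63.8 to 68.8% in Il15° mice. The leading clonotype is itself 13 amino acids long. It held 15.5 to 23.8% of TRAJ31 UMIs in wt, 20.3 to 35.1% in Il2° and 21.2 to 29.1% in Il15° mice. Shares at 13 amino acids without it were not computed, so that its part in these ranges was not tested.

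**Figure D5:**
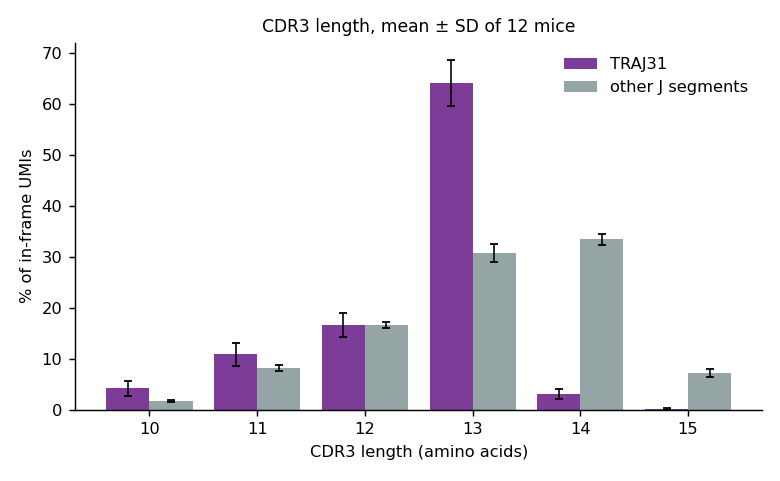
Distribution of CDR3 length (x axis, amino acids) as % of in-frame UMIs (y axis) for TRAJ31 and for the other J segments, mean and SD of 12 mice. TRAJ31 has a single high bar at 13 amino acids (64.1%), whereas the other J segments spread over 13 (30.8%) and 14 (33.5%).

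The number of bases between the V and the J part of TRAJ31 chains depended on the leading clonotype. By the V end and J start that the authors' tables give, the UMI-weighted mean was 1.68 ± 0.169 bases with TRAJ31 and 2.10 ± 0.0560 with the other J segments (SD, n = 12), lower in 12 of 12 mice (difference -0.416 ± 0.154). TRAJ31 was chosen for that clonotype, whose main forms have 0 or 1 added base, so that this value is a description and no p is given for it. Without the leading clonotype, the difference was 0.0728 ± 0.110, higher in 9 of 12 mice. Here TRAJ31 lost its most abundant clonotype while the other J segments kept theirs, so that this value too is a description. With each clonotype counted once, it was 0.0636 ± 0.204, higher in 8 of 12 mice (exact permutation p = 0.307). By a match to the germline segments, which covered 99.1% of TRAJ31 UMIs, 16.7% ± 2.94 of UMIs had 0 bases that match neither segment, between 12.1 and 21.4% in single mice.

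More nucleotide sequences encoded a TRAJ31 clonotype than a clonotype of the other J segments. The mean was 1.32 ± 0.0443 with TRAJ31 and 1.21 ± 0.0285 with the others (SD, n = 12), higher in 12 of 12 mice (difference 0.110 ± 0.0383, exact sign-flip permutation p = 0.000488). Without the leading clonotype the difference was 0.0892 ± 0.0396, and among clonotypes with at least 5 UMIs in the library the means were 2.27 and 1.85, both with the same exact permutation p of 0.000488. A clonotype with more UMIs can show more sequences, and UMIs per clonotype were not equalized between TRAJ31 and the other J segments. TRAJ31 was chosen for an abundant clonotype, so that the difference is a description. TRAV4D-3 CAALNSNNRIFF had 18 nucleotide forms over the 12 mice, the most among the 10 clonotypes named, and TRAV4D-4 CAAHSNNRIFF had 4, the fewest.

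At an equal depth of 671 TRAJ31 UMIs, the expected number of TRAJ31 clonotypes was 209, 189, 148 and 172 in wt mice. It was 130, 192, 214 and 186 in Il2° mice and 159, 116, 100 and 159 in Il15° mice. The means were 180 ± 26.2 in wt, 181 ± 35.5 in Il2° and 134 ± 30.3 in Il15° mice (SD, n = 4). Il15° mice had 45.8 clonotypes fewer than wt and 46.8 fewer than Il2° mice, and in both cases the groups overlapped and the exact Mann-Whitney test gave an adjusted p of 0.171. For Il2° against wt the difference was 0.984 with an adjusted p of 0.886 in the same exact test.

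A few clonotypes found in every mouse held a large share of the TRAJ31 UMIs. Of the 1264 TRAJ31 clonotypes, 14 occurred in all 12 mice (1.11%), with 48.5% of the UMIs, and 688 in a single mouse (54.4%), with 9.53% of the UMIs. Of 19351 in-frame clonotypes of the other J segments, 160 occurred in all 12 mice (0.827%), with 27.1% of the UMIs, and 10155 in a single mouse (52.5%). Since TRAJ31 was chosen for its leading clonotype, which is 1 of the 14, these shares are a description. The 14 comprised 7 of the first 8 by mean share, all but TRAV4D-3 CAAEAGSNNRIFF, which 1 Il2° mouse lacked. They had lengths of 10 to 13 amino acids, and 10 of them ended with all 8 germline residues.

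Presence in all 4 mice of a genotype was found for 45 TRAJ31 clonotypes in wt, 32 in Il2° and 22 in Il15° mice. Of the 45, 21 were not shared by all Il2° mice (46.7%), and 2 had 0 UMIs in each of them, whereas 26 were not shared by all Il15° mice (57.8%), and 3 had 0 UMIs in each of them. For the other J segments, 318 of 573 (55.5%) and 351 of 573 (61.3%) were not shared by all Il2° and all Il15° mice. Conversely, 8 of the 32 in Il2° mice and 3 of the 22 in Il15° mice were not shared by all wt mice (25% and 13.6%), against 136 of 391 (34.8%) and 159 of 381 (41.7%) for the other J segments. Presence depends on depth, and the wt libraries were deeper on average.

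The V label of some members was not unique. Of 1675 TRAJ31 CDR3 nucleotide sequences, 155 appeared under more than 1 TRAV name, with 22.8% of TRAJ31 UMIs. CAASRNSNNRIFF appeared under 4 TRAV names, with 19 UMIs outside TRAV10. TRAV4D-3 and TRAV4N-3 are near-identical copies in the duplicated part of the locus, so that their separate values are uncertain.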

How the data were processed

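TCRα cDNA with UMIs was sequenced from sorted thymic Treg of 12 mice (4 wt, 4 Il2°, 4 Il15°). The authors filtered reads at a quality above 20, built a consensus per UMI from at least 2 reads with pRESTO, aligned and assembled clones with MiXCR and exported tables in VDJtools format. The versions are not given in the sources used here, and the submitters' processing notes name mm10. The deposited counts are whole numbers of UMIs per row, not normalized, and the deposited fraction column, each row's part of its library, was not used further. V end and J start positions were used as the authors' tables give them. J start lay past the CDR3 in 33 of 3548 TRAJ31 rows, which were treated as missing, and 90 rows of all tables repeated another row's sequence and segments and were summed with it.

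Rows with J equal to TRAJ31 and no stop or frame mark were members, and shares were percentages of all UMIs of a library. Groups and replicate numbers came from the labels. Libraries of a genotype are separate mice, and no pair of the 12 tables was identical. Shares and clonotype numbers (analytic rarefaction) were compared by exact 2-sided Mann-Whitney tests, and TRAJ31 with other J segments within a mouse by exact 2-sided sign-flip permutation tests. edgeR 4.0.16 (TMM, quasi-likelihood, at least 5 UMIs in at least 4 of 8 libraries, threshold 0.05 after Benjamini-Hochberg adjustment) was fitted to all clonotypes and all in-frame V-J pairs, with DESeq2 1.42.0 as an alternative, in R 4.3.3. Other values came from Python 3.11.15 with scipy 1.17.1. Replicate errors are SD over mice. Germline segments were read from GENCODE M21 (GRCm38), in which 83 of 85 TRAV partners were matched. Intervals (95%, Wilson for shares) and the limit of 3 UMIs cover counting error only.

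Named were the 10 TRAJ31 clonotypes with the highest mean share, the 3 with the lowest p per comparison where none was called, TRAV partners with at least 3% of TRAJ31 UMIs, and the 5 nearest J segments on each side that occur in the tables. The members and lists were chosen with earlier results of these data known. Alternatives covered the test, denominator, frame, filters, scaling, V copies, nucleotide clonotypes, the leading clonotype, a replicate block and each library left out. On simulated data with 4-fold changes in 200 features, edgeR recovered 75 among the 464 clonotypes and 160 among the 515 V-J pairs of Il2° against wt, with 2 and 9 false calls, 19 among 478 clonotypes of Il15° against wt, and 43 of 181 changed among 362 clonotypes of Il15° against Il2°.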

Additional observations from a re-analysis of the deposited data

Results flagged for a closer look

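Within groups of 4 mice, 4 values stood far from the other 3 by Dixon's criterion, in 69 groups checked, where chance gives about 3.45. In Il15° mouse 2, the leading clonotype held 21.2% of TRAJ31 UMIs, against 28.0 to 29.1% in the other Il15° mice. In Il2° mouse 4, the shallowest library, TRAV7-2 held 13.9% of TRAJ31 UMIs, against 10.7 to 11.2% in the other Il2° mice. TRAV4D-4 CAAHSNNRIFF had 0.208% of UMIs in wt mouse 4, against 0.108 to 0.119% in the other wt mice, and 0.0151% in Il2° mouse 1, against 0.0715 to 0.0787% in the other Il2° mice.

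TRAJ31 rows with a stop codon or out of frame, which are no members, had a mean share in each mutant above the highest wt mouse. There were 79 such rows with 162 UMIs in all. Their mean share was 0.111% in Il2° and 0.0866% in Il15° mice, against 0.0423 to 0.0669% in wt mice. The Il2° values ran from 0.0656 to 0.150% and overlapped those of wt mice. Single mice of the 3 genotypes had only 3 to 28 such UMIs. In Il15° mice, mouse 2 had 0.204% and the other 3 had 0.0279 to 0.0611%, so that the Il15° mean rests on 1 mouse. The difference was not tested, and such rows of the other J segments were not set beside it.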

How the results depend on the processing

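Lengths and nucleotide sequences per clonotype kept their direction under each alternative run. The share of TRAJ31 reversed its small difference for Il2° against wt to -0.0267 with each clonotype counted once and to -0.112 percentage points without the leading clonotype, and for Il15° against wt to -0.389 and -0.509. TRAJ31 clonotypes at equal depth in Il2° against wt reversed to -10.4 with CDR3 nucleotides and to -27 clonotypes as observed without rarefaction. None of these had an adjusted p below the threshold in the main or the alternative setting. The inserted bases reversed to 0.0728 without the leading clonotype, which was left out of TRAJ31 alone, and to 0.0636 with each clonotype counted once. DESeq2 called 1 TRAJ31 clonotype for Il2° against wt in place of 0 (TRAV4D-3 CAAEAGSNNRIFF at -2.47), and all other settings on all libraries called 0. The wt mice alone met the minimum for that clonotype, so that the call is a description. The log2 fold change of TRAV10 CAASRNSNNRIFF for Il15° against Il2° reversed to 0.0094 with at least 2 UMIs in 3 libraries and to 0.0682 with no filter. The cause was not tested. DESeq2's scaling moved the median of all clonotypes by 0.11 on the log2 scale for Il15° against wt, and the other scalings moved medians by less than that.

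Replicate numbers belong to different mice, and the labels do not say whether same-numbered mice shared a litter or a batch. Same-numbered mice correlated at -0.195 to 0.140 in their deviations from the group means over 668 clonotypes. Weak correlations of this kind cannot settle that question. With the replicate block, the share differences were 0.389, 0.000575 and -0.389, the differences in clonotypes at equal depth were 0.984, -45.8 and -46.8, and 0 TRAJ31 clonotypes and 0 pairs were called.

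With each library left out in turn, the share difference ran from -0.211 to 0.923 for Il2° against wt, from -0.483 to 0.534 for Il15° against wt and from -0.688 to 0.212 for Il15° against Il2°. Clonotypes at equal depth ran from -10.2 to 17.7, from -56.5 to -34.7 and from -63.5 to -35.7. Calls of TRAJ31 clonotypes were 0 in Il2° and Il15° against wt and 0 to 1 in Il15° against Il2°, and calls of pairs were 0. The log2 fold change of TRAV10 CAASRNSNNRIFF for Il15° against Il2° ran from -0.121 (without Il2° mouse 2) to 0.271 (without Il2° mouse 1). CDR3 length ran from -0.667 to -0.645, inserted bases from -0.445 to -0.397 and nucleotide sequences per clonotype from 0.103 to 0.115. A clonotype with 0 UMIs in the library of 7625 UMIs could have a share of up to 0.0393%.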
